A study of Mus musculus with 6 samples.

Results

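The 10 genes described here were read from a deposited table of 37411 genes by their symbols, which name chemokines and inflammatory cytokines: Ccl2, Ccl3, Ccl4, Ccl12, Cxcl1, Cxcl10, Cxcl12, Cx3cl1, Il1b and Tnf. All 10 symbols were found, once each. The table came from primary hippocampal neurons of newborn (P0) CD-1 IGS mouse pups, an outbred strain, kept for 16 days in vitro. No genotype or transgene is named for them. Libraries 1, 2 and 3 were from cells given dimethyl sulfoxide (DMSO, the solvent) for 30 min, and libraries 4, 5 and 6 from cells given 50 µM forskolin for the same time; forskolin is a plant compound that activates adenylyl cyclase and so raises cyclic AMP (cAMP). The question is which genes respond early to cAMP. The labels do not say whether libraries of a group came from separate dissections or dishes, so each p-value measures the spread between these libraries only.

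Chemokines are small secreted proteins that attract cells through G-protein-coupled receptors, and IL-1β and TNF are cytokines that start inflammatory signalling in the cells they reach. In the brain, microglia, the resident immune cells, are a known source of Ccl2, Ccl3, Ccl4, Ccl12, IL-1β and TNF, and astrocytes can make Ccl2, Cxcl1 and Cxcl10. Cx3cl1 (fractalkine) is made mainly by neurons and is held on their membrane until proteases release it, while its receptor Cx3cr1 marks microglia.

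Library 6 stood apart from the other forskolin libraries, and this touches almost every value below. Total counts ran from 28342764 to 47548379 per library. The mitochondrial ribosomal RNA genes took 14.03 to 23.7% of counts in the DMSO libraries, 29.6 and 33.3% in libraries 4 and 5 and 26.9% in library 6, so that each forskolin library was above each DMSO library; the part of this share in the results below was not tested. The 18 microglia markers summed to 40.5 to 53.3 CPM (counts scaled to a common library total, with TMM factors) in the DMSO libraries, to 311 and 521 CPM in libraries 4 and 5, and to 37.6 CPM in library 6. Of the 18 markers, 17 were above every DMSO library in library 4, 15 in library 5 and 3 in library 6. Of 9 genes that respond to cAMP or activity, 9 were above all DMSO libraries in libraries 4 and 5 and 8 in library 6. Of all genes tested by edgeR, 30.2% were above all DMSO libraries in both libraries 4 and 5, and 29.5% in library 6. Fos, an immediate-early transcription factor, was at 186, 109 and 101 CPM under DMSO and at 831, 902 and 448 CPM under forskolin (log2 fold change 2.46, edgeR adjusted p = 0.0376), but edgeR called 0 genes of any kind when any single library other than 6 was left out. The 11 neuron markers, which define the labelled cell type, summed to 2863 to 4888 CPM over the 6 libraries, and 9 astrocyte markers to 6971 to 8581 CPM. The cultures thus held transcripts of several cell types, and in such bulk RNA a change in the number of cells of a type and a change in RNA per cell cannot be told apart.

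Of the members, only Ccl2 with Ccl12 and Ccl3 with Ccl4 lie close together in the genome. Coordinates are from GENCODE M21 on GRCm38, the build named in the submitters' processing notes. Ccl2 (chr11:82035571-82037453, + strand) and Ccl12 (chr11:82101845-82103400, + strand) are 64.4 kb apart. Ccl3 (chr11:83647844-83649355, - strand) and Ccl4 (chr11:83662584-83664683, + strand) are 13.2 kb apart. Cxcl1 (chr5:90891241-90893115, + strand) and Cxcl10 (chr5:92346638-92348889, - strand) share a chromosome but are 1454 kb apart. Cxcl12 is at chr6:117168535-117181367, Cx3cl1 at chr8:94772009-94782427, Il1b at chr2:129364570-129371139 and Tnf at chr17:35199381-35202007. Counts are per gene over its transcripts, so they do not show which exon or UTR a read came from. None of the 31-base words in the transcripts of 8 members was found in another gene. Cxcl10 shared 4.47% of its words with the antisense gene Art3 and Cxcl12 shared 0.110% of its words with 4 other genes. Because strand use in the counting is not stated, reads from the stretch that Cxcl10 and Art3 share cannot be told apart; Art3 itself held 7 to 45 counts per library.

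The promoters of Cxcl1 and Cxcl10 are shown because these 2 members had the smallest p-values among the tested members with a positive fold change, and because both hold the NF-κB motif while only Cxcl1 holds the cAMP half-site. Each is the 250 bases before the RefSeq transcript start (GRCm38.p6), 5′ to 3′ on the gene's strand, at chr5:90890995-90891244 (+) for Cxcl1 and chr5:92348890-92349139 (-) for Cxcl10. Capitals mark matches to the half-site of the cAMP response element (TGACG, here on the other strand as CGTCA) and to the NF-κB motif.
Cxcl1: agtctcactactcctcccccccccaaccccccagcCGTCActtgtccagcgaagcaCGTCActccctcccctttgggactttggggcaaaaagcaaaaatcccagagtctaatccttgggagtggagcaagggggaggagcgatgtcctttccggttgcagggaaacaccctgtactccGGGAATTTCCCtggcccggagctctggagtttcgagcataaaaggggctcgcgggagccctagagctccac
Cxcl10: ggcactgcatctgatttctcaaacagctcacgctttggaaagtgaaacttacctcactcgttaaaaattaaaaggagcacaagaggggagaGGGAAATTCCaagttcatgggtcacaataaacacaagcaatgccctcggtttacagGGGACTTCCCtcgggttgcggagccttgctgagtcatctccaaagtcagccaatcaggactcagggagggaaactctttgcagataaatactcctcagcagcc

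Both strands were searched in the 8 members with a promoter entry, of 10, and in all 32851 mouse promoters of the same length. The full cAMP response element TGACGTCA was in 0 of 8 members and in 1.55% of all promoters. Its half-site was in 2 of 8, Cxcl1 (with matches starting 215 and 194 bases before the start) and Cxcl12, and in 17.8% of all promoters. The NF-κB motif was also in 2 of 8: Cxcl1, where 2 overlapping matches begin 71 and 70 bases before the start, and Cxcl10, where matches begin 159 and 103 bases before it. It was in 3.90% of all promoters. These are matches of letters only.

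The 10 members fell into 4 patterns across the libraries. In all, 6 (Ccl2, Ccl4, Ccl12, Cxcl10, Il1b and Tnf) were above all DMSO libraries in libraries 4 and 5 but not in library 6. Cxcl1 and Ccl3 were above all DMSO libraries in each forskolin library. Cx3cl1 was below all of them in each. Cxcl12 overlapped between the groups. In all, 8 of 10 members were above all DMSO libraries in libraries 4 and 5, and 2 of 10 were in library 6. The edgeR test took 16233 genes and 5 of the members. Of those 5, 3 were above in libraries 4 and 5 (30.2% of tested genes), 2 were so without library 6 being above (19.9%), and 1, Cxcl1, was above in library 6 (29.5%). Across all genes tested, 10.3% were above all DMSO libraries in each forskolin library and 26.5% did not overlap between the groups in either direction. No member passed the threshold of an adjusted p under 0.05 in edgeR's quasi-likelihood test, in which 5 members had enough counts to be tested (0 of 5). At an unadjusted p under 0.05 there were 2 higher and 1 lower, and 22.3% of all genes. That test called 1.51% of all genes, 0.172% as higher and 1.34% as lower. DESeq2 called 2 of the 5 members, both higher, and 11.6% of genes (5.20% higher, 6.36% lower). Without library 6, edgeR called 3 members higher and 1 lower, and 32.5% of genes (15.8% higher, 16.7% lower). Limma-voom with library quality weights called 3 members and 41.9% of genes, and edgeR with library size alone in place of TMM called 1 member and 2.01% of genes.

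**Figure D1:**
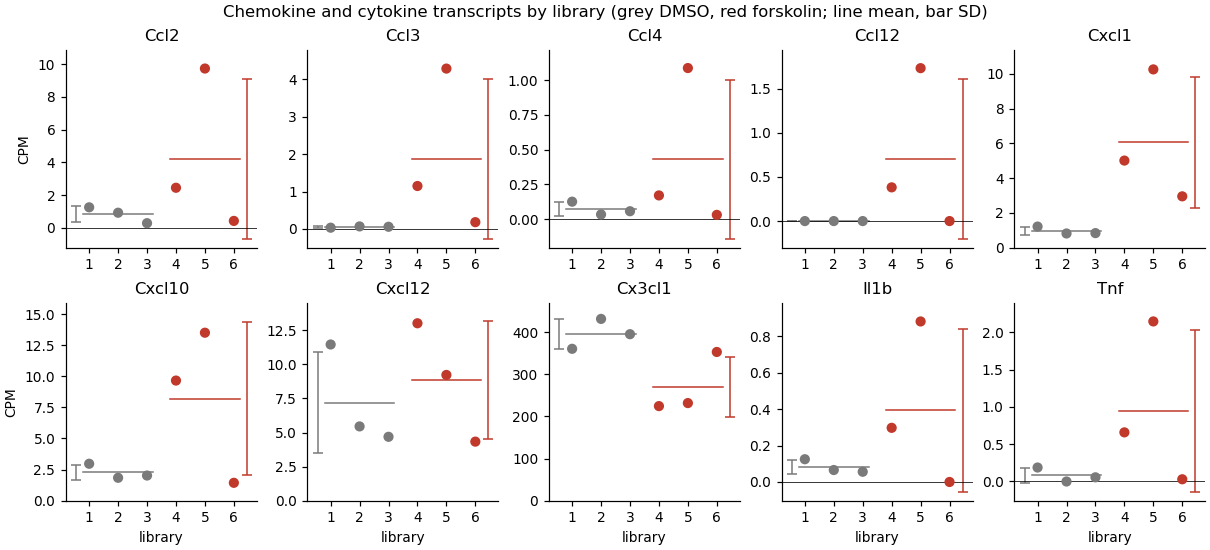
CPM of each member in each library (grey DMSO libraries 1 to 3, red forskolin libraries 4 to 6), with the group mean as a line and the SD as a bar beside the points. Of the members, 8 are above all DMSO libraries in libraries 4 and 5; in library 6 only Cxcl1 and Ccl3 are, and Cx3cl1 is lower in libraries 4 and 5 than in any other library.

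Cxcl1, a ligand of Cxcr2 that attracts neutrophils, had the smallest p-value of the members. It was at 1.22, 0.820 and 0.842 CPM in DMSO libraries 1, 2 and 3 and at 5.01, 10.3 and 2.96 CPM in forskolin libraries 4, 5 and 6. Every forskolin library was above every DMSO library, by 5.22, 10.7 and 3.08 times the DMSO mean. The means were 0.960 ± 0.224 and 6.07 ± 3.76 CPM (SD, n = 3 each), and the log2 fold change was 2.66 ± 0.50 (SE; edgeR adjusted p = 0.0613, unadjusted p = 0.00115, which ranked 303 of all genes tested). DESeq2 gave the same size of change and called it (2.67, adjusted p = 1.21e-05), as did edgeR without library 6 (2.98 ± 0.37, adjusted p = 0.00444). With libraries 4 and 5 left out the change was 1.65 ± 0.37 (edgeR adjusted p = 0.126). Cxcl1 is therefore the tested member whose positive fold change held in library 6.

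Cxcl10, an interferon-inducible chemokine that binds Cxcr3, followed libraries 4 and 5 only. It was at 2.97, 1.84 and 2.02 CPM under DMSO and at 9.66, 13.5 and 1.43 CPM under forskolin. Library 6 was below every DMSO library, so that the groups overlapped. The means were 2.27 ± 0.606 and 8.20 ± 6.17 CPM (SD, n = 3 each). The log2 difference was 1.85 ± 0.72 (SE; edgeR adjusted p = 0.203). It was called by DESeq2 (1.86, adjusted p = 0.0491) and by edgeR without library 6 (2.35 ± 0.27, adjusted p = 0.00407), and its fold change was negative without libraries 4 and 5 (-0.63). Cxcl10 is the 1 member in the authors' deposited table of 132 genes, which gives a log2 fold change of 1.74 with a standard error of 0.336 and an adjusted p of 9.86e-06. The smallest log2 fold change in the authors' deposited table is 1.50, its smallest mean level is 126 and its ranks reach 1224, so it holds part of a longer list, and a member's absence from it does not show that the authors did not call it. That table also holds 10 of the microglia and border macrophage markers.

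Ccl2, the main attractant of monocytes through Ccr2, had the largest SD relative to its mean among the tested members under forskolin. It was at 1.25, 0.919 and 0.281 CPM in the DMSO libraries and at 2.44, 9.73 and 0.418 CPM in the forskolin libraries. Library 5 was 11.9 times the DMSO mean and library 4 was 2.99 times, while library 6 lay within the DMSO range at 0.512 times. The means were 0.816 ± 0.492 and 4.20 ± 4.90 CPM (SD, n = 3 each; log2 fold change 2.36 ± 1.07, edgeR adjusted p = 0.250). Without library 6 the change was 2.90 ± 0.73 (edgeR adjusted p = 0.0278), without library 5 it was 0.86 (edgeR adjusted p = 0.709), and without libraries 4 and 5 it was -0.92.

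Ccl12, the neighbour of Ccl2 and another ligand of Ccr2, had 0 counts in the 3 DMSO libraries, 18 and 59 counts in libraries 4 and 5 and 0 in library 6. In CPM these are 0.382 and 1.73 in libraries 4 and 5. Library 4 stood at 12.5 times a floor of 3 counts over the DMSO group (0.0306 CPM), and library 5 at 56.7 times. These ratios leave out the counting error of libraries 4 and 5. The 95% Poisson intervals were 0.227 to 0.604 CPM in library 4 and 1.32 to 2.24 CPM in library 5. In the pooled DMSO libraries the interval was 0 to 0.0376 CPM. For the 0 counts in library 6 it was 0 to 0.110 CPM. Transcripts of Ccl12 were thus detected in libraries 4 and 5 and in no other.

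Ccl3 and Ccl4, neighbouring genes for chemokines known from activated microglia, also had few counts and were not tested. Ccl3 had 1, 2 and 2 counts under DMSO and 54, 146 and 6 under forskolin, or 0.0312, 0.0656 and 0.0561 CPM against 1.15, 4.29 and 0.179 CPM. This put libraries 4, 5 and 6 at 22.5, 84.1 and 3.51 times the DMSO mean. In library 6 the 95% Poisson interval of Ccl3 (0.0658 to 0.390 CPM) overlapped that of the pooled DMSO libraries (0.0165 to 0.119 CPM), and library 6 rests on 6 counts. Such intervals cover counting error only. Ccl4 had 4, 1 and 2 counts under DMSO and 8, 37 and 1 under forskolin. In library 4 its interval (0.0734 to 0.335 CPM) overlapped that of the pooled DMSO libraries (0.0287 to 0.147 CPM), and in library 5 (0.765 to 1.50 CPM) it did not. The neighbours thus shared their high value in library 5.

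Il1b and Tnf, the inflammatory cytokines of the set, were near the limit of detection outside libraries 4 and 5. Il1b had 4, 2 and 2 counts under DMSO and 14, 30 and 0 under forskolin, and Tnf had 6, 0 and 2 counts against 31, 73 and 1. In CPM, Tnf was 8.11 times the DMSO mean in library 4 and 26.4 times in library 5, and Il1b was 3.62 and 10.7 times. In library 5 the Poisson intervals of Il1b (0.595 to 1.26 CPM) and Tnf (1.68 to 2.70 CPM) lay above those of the pooled DMSO libraries (0.0352 to 0.161 CPM for each). Library 6 gave no sign of either above DMSO at this depth. With no filter on low counts, edgeR's adjusted p was 0.0690 for Ccl3, 0.150 for Ccl12, 0.198 for Tnf, 0.290 for Ccl4 and 0.352 for Il1b; that fit called 0.795% of 26663 genes and 1 of the 10 members, Cxcl1.

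Cxcl12 (SDF-1), which binds Cxcr4 and Ackr3 and guides migrating cells in the developing brain, did not separate the groups. It was at 11.5, 5.45 and 4.68 CPM under DMSO and at 13.02, 9.23 and 4.33 CPM under forskolin. Of the DMSO libraries, library 1 alone was above library 5, and library 6 was below every DMSO library. The log2 fold change was 0.30 ± 0.49 (edgeR adjusted p = 0.736), and it was -0.09 without library 4.

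Cx3cl1 was the 1 member with a negative fold change. It was at 361, 432 and 396 CPM in the DMSO libraries and at 225, 232 and 353 CPM in the forskolin libraries. All forskolin libraries were below all DMSO libraries, but library 6 only narrowly, at 0.892 times the DMSO mean against 0.567 and 0.585 for libraries 4 and 5. The means were 396 ± 35.5 and 269.9 ± 72.3 CPM (SD, n = 3 each), and the log2 fold change was -0.55 ± 0.20 (SE; edgeR adjusted p = 0.188). Without library 6 it was -0.80 ± 0.11 (adjusted p = 0.00525), and without libraries 4 and 5 it was -0.13. When each library's trend of the log ratio on GC content was removed, the change was -0.22 (edgeR adjusted p = 0.675). The summed neuron markers were at 3742, 4402 and 4888 CPM under DMSO and at 2863, 3118 and 4537 CPM under forskolin, so they too were lower in libraries 4 and 5 than in the others; their part in the value of Cx3cl1 was not tested.

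**Figure D2:**
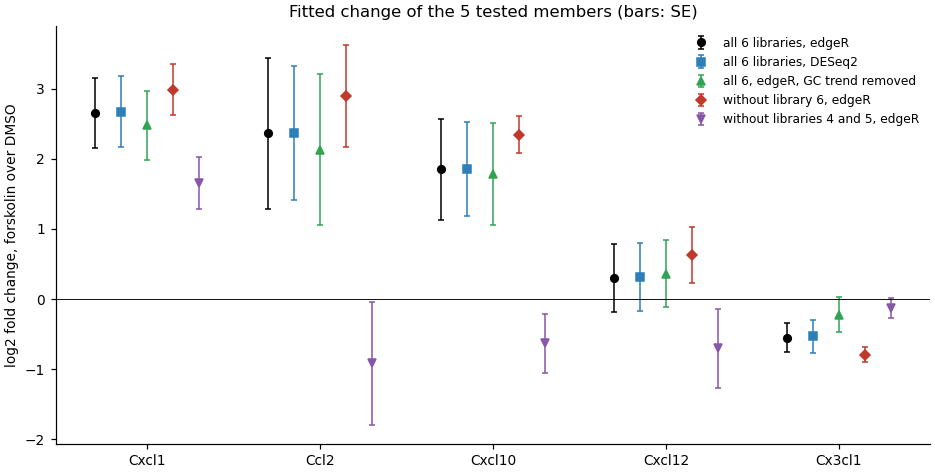
Log2 fold change of forskolin over DMSO for the 5 tested members, with SE bars, in 5 fits. Cxcl1 stays positive in each fit, Ccl2, Cxcl10 and Cxcl12 turn negative without libraries 4 and 5, and Cx3cl1 lies below 0 in each, at -0.22 with the GC trend removed.

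Per kb of the longest transcript, Cx3cl1 was by far the most abundant member. Its DMSO mean was 119 ± 10.7 CPM per kb (SD, n = 3), against 1.28 ± 0.660 for Cxcl12, 1.02 ± 0.272 for Cxcl10, 0.745 ± 0.449 for Ccl2 and 0.513 ± 0.120 for Cxcl1. Among these last 4, neighbours in the order differed by less than the sum of their SDs, and the other 5 members were at 0.108 CPM per kb or lower. Under forskolin Cx3cl1 was at 81.4 ± 21.8 CPM per kb, and Ccl2 (3.83 ± 4.47), Cxcl10 (3.68 ± 2.77) and Cxcl1 (3.25 ± 2.01) came next with overlapping spreads. With the mean transcript length in place of the longest, the DMSO level of Cx3cl1 was 407 CPM per kb and that of Cxcl10 1.81; the order of the first 5 under DMSO was the same, but under forskolin Cxcl10 came before Ccl2. The share of Cx3cl1 in the summed CPM of the 10 members was 95.4 to 98.0% in the DMSO libraries, 87.3 and 81.4% in libraries 4 and 5, and 97.4% in library 6. The other 9 members summed to 17.4, 9.19 and 8.05 CPM under DMSO and to 32.8, 52.9 and 9.38 CPM under forskolin.

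Of 15 listed receptors of these ligands, 13 were above all DMSO libraries in library 4, 13 in library 5 and 4 in library 6. Among them, 8 were tested; 0 passed in edgeR with all libraries (5 higher at an unadjusted p under 0.05), 4 were called higher by DESeq2 (Cx3cr1, Cxcr4, Il1r1 and Tnfrsf1b), and 7 were called higher and 1, Ackr1, lower by edgeR without library 6. Their median log2 fold change was 0.94, against 0.02 over all tested genes. Of all tested genes, 30.2% were above all DMSO libraries in both libraries 4 and 5, and 29.5% in library 6. An unadjusted edgeR p under 0.05 was found for 22.3%. DESeq2 called 5.20% higher and 6.36% lower, and edgeR without library 6 called 15.8% higher and 16.7% lower. Cx3cr1, the receptor of Cx3cl1, had 21, 18 and 17 counts under DMSO and 1045, 1577 and 39 under forskolin (log2 fold change 5.33 ± 1.22, edgeR adjusted p = 0.0895), and its log2 fold change without library 6 was 5.89 (edgeR adjusted p = 0.00194). The ligand was thus lower and the receptor higher in libraries 4 and 5. Cx3cr1 is also 1 of the 18 microglia markers, and the sum of those markers is given above for the same libraries; their part in the result was not tested.

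Cxcr4, the main receptor of Cxcl12, was at 14.9, 11.4 and 9.93 CPM under DMSO and at 36.4, 36.4 and 14.9 CPM under forskolin (1.28 ± 0.36, edgeR adjusted p = 0.132; DESeq2 adjusted p = 0.00844). Ackr3, which scavenges Cxcl12, differed by 0.60 on the log2 scale (edgeR adjusted p = 0.249). For the cytokine receptors, Il1r1 differed by 1.40 on the log2 scale (edgeR adjusted p = 0.183), Tnfrsf1a by 0.42 (0.491) and Tnfrsf1b by 3.43 (0.156) in the same edgeR fit. Tnfrsf1b held 8 to 17 counts per DMSO library, 204 and 303 in libraries 4 and 5 and 9 in library 6. Il1rap, the co-receptor of IL-1, was at 22.2 to 25.2 CPM there and 27.8 to 39.6 CPM under forskolin (0.45, edgeR adjusted p = 0.174). Several chemokine receptors were at or near 0. In libraries 4 and 5 Ccr1 had 8 and 3 counts, Cxcr3 had 2 and 4, Ccr2 had 1 in library 5, Cxcr2 had 1 in library 4, and each had 0 in the other libraries. The signalling receptors named above for Ccl2, Ccl12, Cxcl1 and Cxcl10 were therefore almost without reads in these cultures.

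Genes that process or restrain IL-1, TNF and Cx3cl1 had 11 tested members of 16, of which 0 passed in edgeR with all libraries (4 higher at an unadjusted p under 0.05), 3 were called higher by DESeq2 (Casp1, Pycard and Zfp36) and 8 were called higher by edgeR without library 6; the median log2 fold change was 1.75. Of all tested genes, 22.3% had an unadjusted edgeR p under 0.05. DESeq2 called 5.20% of them higher and edgeR without library 6 called 15.8% higher. Adam17, the protease that sheds TNF and Cx3cl1, was at 30.2 to 37.6 CPM under DMSO and at 48.9, 53.8 and 33.8 CPM under forskolin (0.45 ± 0.19, edgeR adjusted p = 0.226). Adam10, which sheds Cx3cl1 in resting cells, was at 25.2 to 32.1 and 29.1 to 36.1 CPM (0.23, edgeR adjusted p = 0.367). Timp3, an inhibitor of both proteases, differed by 0.51 on the log2 scale (edgeR adjusted p = 0.295), and Rhbdf1, which carries Adam17 to the cell surface, by -0.28 (edgeR adjusted p = 0.659).

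Among 25 other chemokines 9 were tested and among 23 other cytokines 9 were tested, and edgeR with all libraries called 0 of either (3 chemokines higher and 1 cytokine lower at an unadjusted p under 0.05). DESeq2 called 2 of the chemokines, Ccl9 and Cxcl5, higher and 1 of the cytokines, Mif, lower. Without library 6 edgeR called 3 chemokines higher (Ccl9, Cxcl5 and Cxcl16) and 1 lower (Cxcl14), and 3 cytokines higher (Csf1, Il15 and Tgfb1) and 3 lower (Il16, Il34 and Mif). That fit called 15.8% of all tested genes higher and 16.7% lower. DESeq2 called 5.20% higher and 6.36% lower, and 22.3% had an unadjusted p under 0.05 in edgeR with all libraries. Cxcl14, a chemokine known from neurons and epithelia, was at 50.1, 60.4 and 54.6 CPM under DMSO and at 21.5, 30.6 and 53.3 CPM under forskolin (-0.65, edgeR adjusted p = 0.270). Like Cx3cl1 it was low in libraries 4 and 5. Mif, a cytokine of many cell types, was at 78.4, 127 and 87.8 CPM under DMSO and at 52.8, 53.8 and 52.6 CPM under forskolin (-0.88, edgeR adjusted p = 0.0768). Csf1, a growth factor of microglia, was at 37.4 to 51.9 CPM under DMSO and at 96.8, 108 and 27.7 CPM under forskolin (0.85, edgeR adjusted p = 0.316).

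Markers of immune cells moved with the members that were high in libraries 4 and 5. Among the 18 microglia markers 14 were tested and 0 were called by edgeR with all libraries (12 higher at an unadjusted p under 0.05), while 12 of the 14 were called higher by DESeq2 and 12 by edgeR without library 6; their median log2 fold change was 4.59. Of all tested genes, 22.3% had an unadjusted edgeR p under 0.05. DESeq2 called 5.20% of them higher and edgeR without library 6 called 15.8% higher. The 8 markers of border macrophages and monocytes summed to 2.53 to 3.18 CPM under DMSO and to 32.7, 64.3 and 4.63 CPM under forskolin, with the monocyte marker Ly6c2 at 0 counts in all libraries. The 4 neutrophil markers summed to 0, 0 and 0.0561 CPM under DMSO and to 0.212, 0.441 and 0.0896 CPM under forskolin. Among them S100a9 was at 0 in all 6 libraries, S100a8 had 8 counts in library 4 and 0 in the others, and Camp had 0 counts in each DMSO library and 1, 13 and 1 in libraries 4, 5 and 6. Set against the summed microglia markers of the same library, Ccl2 had 23.4, 21.7 and 6.92 counts per 1000 marker counts under DMSO and 7.86, 18.7 and 11.1 under forskolin. Cxcl1 had 22.8, 19.4 and 20.8 per 1000 under DMSO, 16.1 and 19.7 in libraries 4 and 5 and 78.7 in library 6. Cxcl10 had 43.4 to 55.6 per 1000 under DMSO and 31.1, 25.9 and 38.2 under forskolin. On this scale libraries 4 and 5 lay below or within the DMSO range for Cxcl1 and Cxcl10. Ccl3 had 0.585, 1.55 and 1.38 per 1000 under DMSO and 3.69, 8.23 and 4.77 under forskolin, so it was above all DMSO libraries in each forskolin library, though library 6 rests on the same 6 counts. Ccl12 had 0 under DMSO, 1.23 and 3.33 in libraries 4 and 5 and 0 in library 6. Tnf was at 0 to 3.51 per 1000 under DMSO and above that range in library 5 alone (4.11). Ccl4 had 0.775 to 2.34 per 1000 under DMSO and 0.547, 2.09 and 0.795 under forskolin, and Il1b had 1.38 to 2.34 against 0.957, 1.69 and 0, so both lay within or below the DMSO range. The part of these cells in the members' values was not tested.

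**Figure D3:**
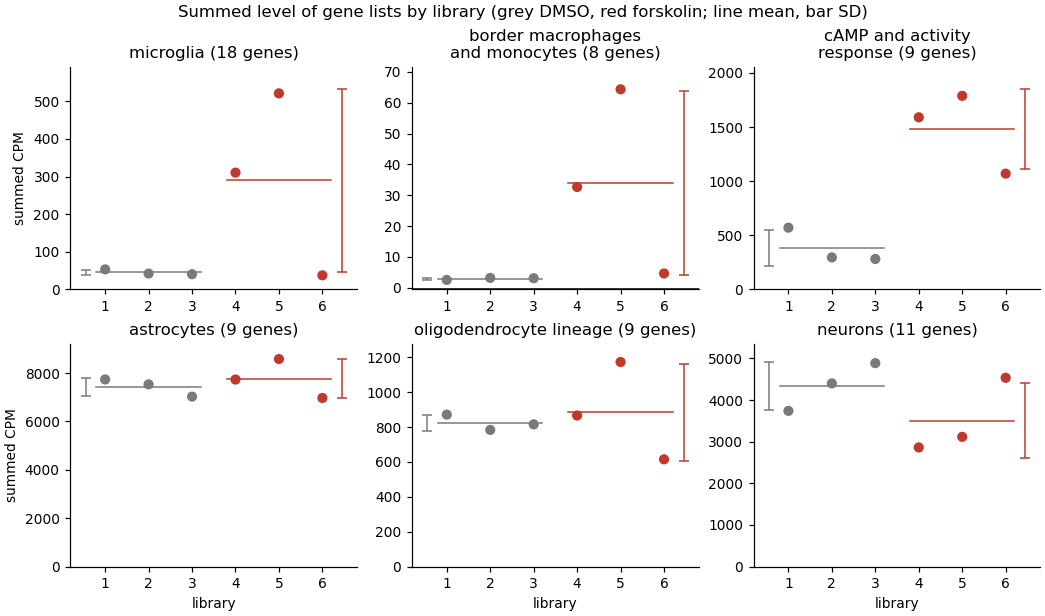
Summed CPM of 6 gene lists in each library (grey DMSO, red forskolin, line group mean, bar SD). Microglia markers are high in libraries 4 and 5 only. Border macrophage and monocyte markers are highest there, with library 6 (4.63 CPM) just above the DMSO libraries, neuron markers are lowest there, and the summed cAMP and activity response genes are above all DMSO libraries in each forskolin library.

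Libraries 4 and 5 also differed from each other. The ratio of library 5 to library 4 in CPM was 6.40 for Ccl4, 4.53 for Ccl12, 3.98 for Ccl2, 3.74 for Ccl3, 3.26 for Tnf and 2.96 for Il1b. It was 2.05 for Cxcl1, 1.40 for Cxcl10, 1.03 for Cx3cl1 and 0.709 for Cxcl12. Among 17 microglia markers with at least 5 counts the ratio ran from 0.329 to 4.05 with a median of 1.75, and among 5 border macrophage markers from 0.738 to 3.41 with a median of 1.98. The CC chemokines and the cytokines were thus more unequal between these 2 libraries than the median marker of either cell type, with 1 library behind each value and no test.

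**Figure D4:**
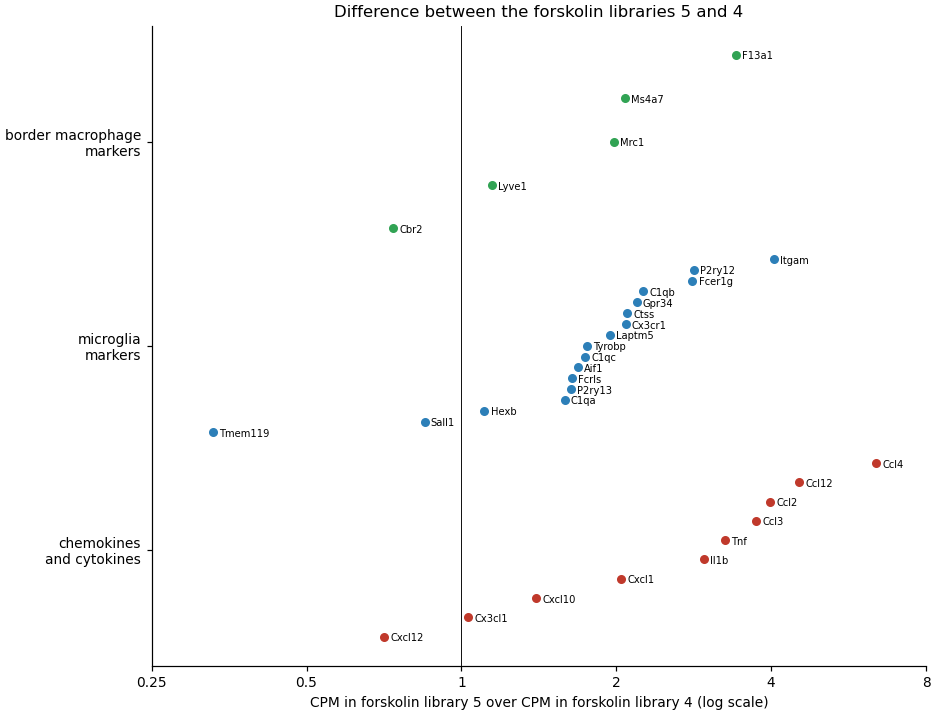
Ratio of library 5 to library 4 in CPM (log axis) for the 10 members and for single microglia and border macrophage markers. The 4 CC chemokines, Tnf and Il1b lie between 2.96 and 6.40, above the marker medians of 1.75 and 1.98.

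The genes whose log2 CPM followed each tested member most closely over the 6 libraries were sought among 13445 genes (mean count 50 or more). With only 6 libraries, split between DMSO and forskolin, the Pearson r is a description. For Ccl2 they were Timp1 (r = 0.994), Mmp19 (0.993) and C4a (0.987). For Cxcl1 they were Rbl1 (0.993), Atg4a (0.987) and Kif18a (0.987), and for Cxcl10 they were Mob3b (0.999), Adgb (0.998) and Agmo (0.998). Cxcl12 was closest to Tgm2 (0.996), 2810459M11Rik (0.996) and the collagen gene Col5a1 (0.995), and Cx3cl1 to Spock2 (0.9997), Celf6 (0.999) and Sult4a1 (0.999). Timp1, an inhibitor of matrix proteases, shared the single high value of Ccl2: it was at 9.61 CPM in library 5 and at 0.505 to 2.72 CPM in the others. None of the tested members was among the 3 genes closest to another. Ccl3, Ccl4, Ccl12, Il1b and Tnf were not tested and so were not among the genes searched.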

How the data were processed

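Total RNA was isolated by Trizol and chloroform and sequenced as Illumina libraries, per the labels' protocols. The authors deposited a raw count for each gene symbol in each of 6 libraries; Salmon, DESeq and GRCm38 are named in the submitters' processing notes with no role, and the annotation and strand setting are not given in the sources used here. The authors' deposited table of 132 genes lists for each gene the average normalised level (a signal), the log2 ratio of forskolin over DMSO and its error, the test score, and raw and adjusted p-values, per the file headers. The 10 members and all gene lists were chosen with earlier results of these data known.

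Computation used R 4.3.3, edgeR 4.0.16, limma 3.58.1 and DESeq2 1.42.0. The filterByExpr filter (minimum count 10, minimum total 15) left 16233 genes, and 5 members, Ccl3, Ccl4, Ccl12, Il1b and Tnf, fell under it. Groups were compared with edgeR's quasi-likelihood test after TMM scaling, with Benjamini-Hochberg adjustment over all tested genes and a threshold of 0.05. The SE is the absolute log2 fold change over the square root of the F statistic. Log2 CPM used a prior count of 2. The fits were tested on simulated data. Alternatives were DESeq2, limma-voom with quality weights, RLE factors, library size alone, other filters, a GC correction (GC content known for 97.1% of tested genes), and leaving out libraries. All members, and their receptors, were to be named whatever their values; the values of some listed genes are not reported here. From each other list the text could name the genes past the threshold (at most 4, by fold change) or, where none passed, the 4 with the largest mean CPM; Ly6c2, Art3 and genes named only as called under an alternative were chosen after their values were seen. The 3 genes most like each tested member were also named. Group means have 3 libraries each, and total counts of 28342764 to 47548379 leave members under 10 counts with large counting error.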

Additional observations from a re-analysis of the deposited data

How the results depend on the processing

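With all libraries edgeR called 245 genes (28 higher, 217 lower), and the number rested on the tool and on library 6. DESeq2 called 1765 (794 higher, 971 lower), limma-voom with quality weights 6795 (3403 higher, 3392 lower), RLE factors 137 (24 higher, 113 lower), library size alone 326 (31 higher, 295 lower), no filter 212 (46 higher, 166 lower) and the GC correction 0 (0 higher, 0 lower). Without libraries 4 and 5 it was 88 (5 higher, 83 lower). Leaving out 1 library gave 0 to 5280 genes (0 to 2562 higher, 0 to 2718 lower), 5280 without library 6 and 0 without any other. Of the 5 tested members, 0 passed with all libraries, 2 with DESeq2, 3 with limma-voom, 1 with library size alone and 1 with no filter. Leaving out 1 library gave 0 to 4 members, 4 without library 6. Limma-voom gave library 6 a weight of 0.156, against 0.994 to 2.27 for the others.

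Fold changes turned negative for Ccl2 (-0.919), Cxcl10 (-0.632) and Cxcl12 (-0.701) without libraries 4 and 5, and for Cxcl12 (-0.0862) without library 4, within a range of -0.0862 to 0.808 (without library 1) over the libraries left out singly; the cause was not tested. Those of Cxcl1 and Cx3cl1 kept their sign under every alternative run. A lone library 6 was assumed to vary like the DMSO libraries. No paired analysis was possible because the labels number the libraries from 1 to 6 over both groups. Depth limits Ccl3, Ccl4, Ccl12, Il1b and Tnf, whose DMSO libraries held 0 to 6 counts.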

Other observations

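The innate sensors and adaptors that act upstream of these chemokines and cytokines included 13 tested genes of 16. In edgeR with all libraries 0 passed (7 higher at an unadjusted p under 0.05), DESeq2 called 5 higher (Fcgr1, Fcgr3, Irak3, Tlr2 and Tlr4), and edgeR without library 6 called 7 higher and 0 lower. The median log2 fold change was 0.85, against 0.02 over all tested genes. Of all tested genes, 22.3% had an unadjusted edgeR p under 0.05. DESeq2 called 5.20% of them higher, and edgeR without library 6 called 15.8% higher and 16.7% lower. Tlr3, a receptor for double-stranded RNA, was at 4.31, 4.003 and 4.88 CPM under DMSO and at 10.1, 14.1 and 4.12 CPM under forskolin (log2 fold change 1.10, edgeR adjusted p = 0.198), and without library 6 the log2 fold change was 1.46 (edgeR adjusted p = 0.00540). Traf6, an adaptor shared by IL-1 and Toll-like receptors, was at 27.3 to 30.7 CPM under DMSO and at 31.9 to 32.9 CPM under forskolin (0.14, edgeR adjusted p = 0.432).

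Among 9 genes of the cAMP and activity response, edgeR called 4 higher with all libraries: Klf4 (4.67, adjusted p = 0.0381), Maff (3.71, 0.0314), Fosb (3.38, 0.0402) and Fos (2.46, 0.0376). In library 6, 8 of the 9 were above every DMSO library, as were 29.5% of all tested genes. Among 11 neuron markers 1 fell, Rbfox3 (-0.87, edgeR adjusted p = 0.0392). None of these 5 calls held when any single library other than 6 was left out. With RLE factors in place of TMM, edgeR called 0 neuron markers and 4 genes of the cAMP list. DESeq2 called 3 neuron markers, Rbfox3 among them, and 7 genes of the cAMP list. Rbfox3 was at 69.2, 84.5 and 80.2 CPM under DMSO and at 37.8, 42.8 and 47.2 CPM under forskolin, so that library 6 was low as well.

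Other marker lists held 0 calls in edgeR with all libraries: 4 tested endothelial markers (1 higher at an unadjusted p under 0.05), 7 of mural cells and fibroblasts (0), 9 of astrocytes (2 higher) and 9 of the oligodendrocyte lineage (3 higher and 3 lower). Without library 6, 4 markers of the oligodendrocyte lineage were called higher and 2 lower. That fit called 15.8% of all tested genes higher and 16.7% lower. With all libraries, 22.3% of tested genes had an unadjusted edgeR p under 0.05.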
